A study of Rattus norvegicus with 22 samples.

Results

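AMPA and kainate receptors are the fast excitatory glutamate receptors of the central nervous system, and the probe sets for their subunits were followed here across identified spinal neurons. Every probe set of the deposited table whose platform gene symbol was Gria1 to Gria4 (AMPA subunits) or Grik1 to Grik5 (kainate subunits) was taken, each on its own. This gave 13 of the 1050 probe sets, or 8 of the 643 genes named in the table, with 7 probe sets for the AMPA genes Gria2, Gria3 and Gria4 and 6 for the kainate genes Grik1 to Grik5. The ninth gene sought, Gria1, was not analysed here. None of their values lay at the lowest value of the table. Only 1 value of the whole table did, so this does not show that they were detected.

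AMPA receptors are assembled from GluA subunits and carry most of the fast excitatory current at glutamatergic synapses, and the edited GluA2 subunit encoded by Gria2 keeps calcium from passing through the channel. Kainate receptors are built from the subunits of Grik1, Grik2 and Grik3, which can form channels by themselves, together with those of Grik4 and Grik5, which bind glutamate with high affinity but need one of the others to form a working channel. In the spinal cord both receptor classes serve glutamatergic input to motor neurons and to the interneurons of the locomotor network.

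The study asked how the transcripts of descending commissural interneurons (dCINs), whose axons cross the midline and run caudally, differ from those of motor neurons (MNs). All animals were Wistar rats at postnatal day 0 to 4, and each array held the RNA of 1 animal. The dCINs (7 arrays) were segment L2 cells filled with rhodamine dextran through axons severed in the contralateral cord below that segment, and the MNs (7 arrays) were filled through the ventral roots of L2. The MIX samples (8 arrays), a control of randomly picked ventral horn cells, include both cell types. Retrograde filling picks cells by where the axon runs and not by transmitter, so the dCINs are a mixture of excitatory and inhibitory neurons.

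Each sample pooled 50 to 100 laser microdissected cells for dCINs, 55 to 250 for MNs and 95 to 187 for MIX, and its RNA went through a 2-round amplification before hybridization to RN_U34 GeneChips. The values are intensities on a linear scale, and the median over all probe sets of an array was 43.5 to 50.9 in dCINs, 44.3 to 50.8 in MNs and 45.0 to 48.2 in MIX. The motor neuron markers of the table (3 probe sets of Slc18a3 and Calcb, 2 of 8 genes listed) summed to 170 to 1338 in dCINs, 3134 to 5608 in MNs and 1796 to 4027 in MIX. The inhibitory neuron marker Slc32a1 and its second probe set summed to 387 to 804 in dCINs, 72.1 to 400 in MNs and 241 to 616 in MIX. No marker lay at the lowest value of the table on any array, which does not show that it was detected, since only 1 value lay there. The astrocyte markers (6 probe sets, 3 of 8 genes) summed to 1127 to 2020 in dCINs, 827 to 1456 in MNs and 916 to 1982 in MIX. Most of that sum was S100b, which averaged 1103 in dCINs, 771 in MNs and 1198 in MIX. The Slc1a2 and Slc1a3 probe sets had group means of 31.4 to 113. The oligodendrocyte lineage markers (11 probe sets, 5 of 8 genes) summed to 739 to 1188 in dCINs, 768 to 1039 in MNs and 641 to 1490 in MIX. The single microglia marker of the table, Itgam, read at most 19.4 in dCINs, 19.6 in MNs and 27.5 in MIX. Of the 6 astrocyte and 11 oligodendrocyte lineage probe sets none passed the test between dCINs and MNs (limma, Benjamini-Hochberg adjusted p under 0.1), although 1 and 3 of them had an unadjusted p under 0.05. The astrocyte set was S100b, higher in dCINs by 0.53 on the log2 scale (limma adjusted p = 0.170). The 3 oligodendrocyte lineage sets did not share a direction. The part of these other cells in the receptor signals was not tested. In pooled cells, fewer cells of a type and less RNA per cell cannot be told apart.

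The promoters of 2 kainate receptor genes are shown because the signals of Grik1 and Grik2 went together over the MIX arrays (r = 0.89), though not over the dCIN arrays (r = -0.14), as described further on. Gria2 M38061_at went with Grik2 as closely in MIX (r = 0.90), but Gria2 had no promoter entry. Whether the promoters bear on these signals was not tested. The sequences come from RefSeq on the rat build GRCr8, as windows of 250 bases before and 50 bases after the start of the gene, and the capitals mark the 50 bases from that start onward. The Grik1 window lies at chr11:41056454-41056753 on the minus strand and the Grik2 window at chr20:54415234-54415533 on the minus strand.
Grik1 promoter: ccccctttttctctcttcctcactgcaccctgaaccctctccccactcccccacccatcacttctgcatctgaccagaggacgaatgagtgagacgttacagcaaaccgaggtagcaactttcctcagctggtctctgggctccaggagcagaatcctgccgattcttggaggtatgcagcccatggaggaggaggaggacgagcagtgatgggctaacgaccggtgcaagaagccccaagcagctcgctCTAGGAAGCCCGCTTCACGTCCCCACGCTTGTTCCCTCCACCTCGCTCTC
Grik2 promoter: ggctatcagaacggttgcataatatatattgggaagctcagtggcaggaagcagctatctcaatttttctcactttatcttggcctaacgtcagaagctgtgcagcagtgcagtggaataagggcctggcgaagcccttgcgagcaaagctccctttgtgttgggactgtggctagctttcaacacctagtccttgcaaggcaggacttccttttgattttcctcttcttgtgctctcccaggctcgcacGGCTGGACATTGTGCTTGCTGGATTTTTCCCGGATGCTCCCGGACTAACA
The GC content was 58.7% in the Grik1 window and 50.3% in the Grik2 window, against a median of 51.7% over all 33469 promoters of the table. Searched on both strands, neither window held the GC box GGGCGG, which 33.1% of all promoters held, or the TATA box TATAAA, which 14.2% held. No match says only that these letters are not in this window. Of the 8 genes, 6 had an entry in the promoter table, and Gria2 and Gria3 did not.

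Between dCINs and MNs, 1 of the 13 probe sets differed, that for Grik1, which encodes the kainate receptor subunit GluK1. The background was 3.81% of all 1050 probe sets called, 2.38% higher and 1.43% lower in dCINs, at a Benjamini-Hochberg adjusted p under 0.1 in the limma fit. An unadjusted p under 0.05 was reached by 2 of the 13, the other being a Gria2 probe set, against 10.9% of all probe sets. The sign of the difference was positive for 8 of the 13, against 43.0% of all probe sets. The median log2 difference (dCIN minus MN) was 0.05 over the 13, 0.04 over the 7 AMPA and 0.28 over the 6 kainate probe sets, against -0.03 over the whole table. In absolute size the median was 0.20 over the 13 and 0.13 over the table.

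**Figure D1:**
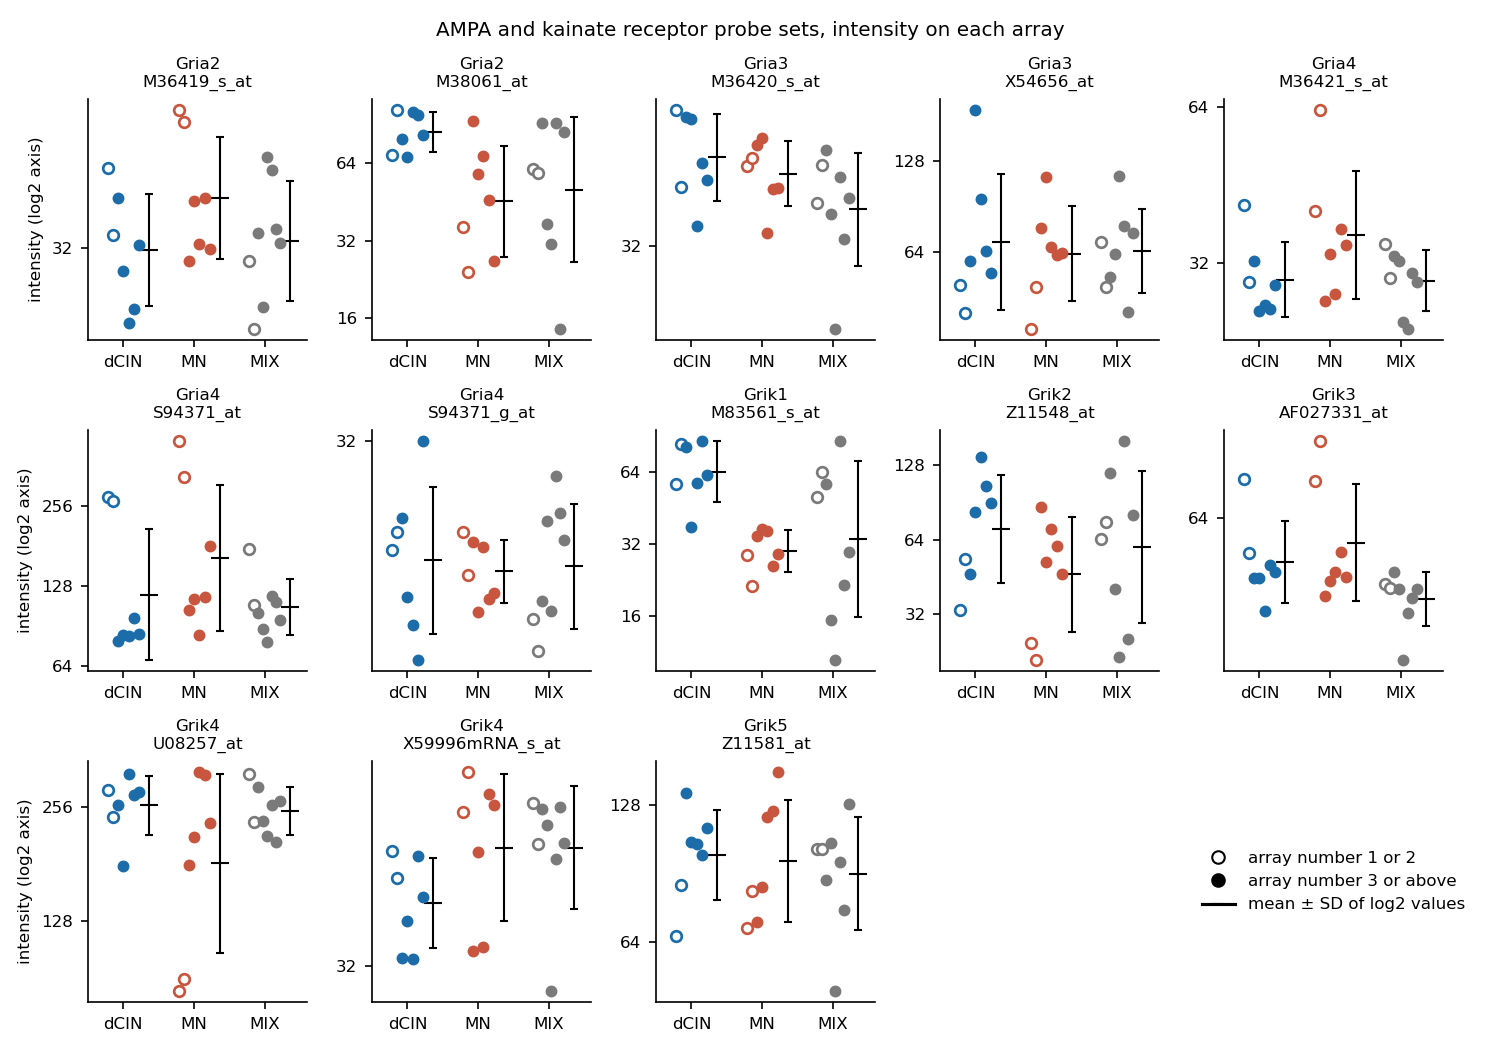
Intensity (log2 axis) of each of the 13 probe sets on every dCIN, MN and MIX array, with open circles for the arrays numbered 1 and 2, filled circles for the others, and the mean ± SD of the log2 values beside each group. For Grik1 the lowest dCIN array (37.5) lies above the highest MN array (36.9), whereas the groups overlap for the other 12 probe sets.

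Grik1 (probe set M83561_s_at) had a lowest value of 37.5, a median of 62.2 and a highest value of 85.7 in dCINs, against 21.4, 29.0 and 36.9 in MNs. The groups did not overlap, although the lowest dCIN array and the highest MN array were close to each other. Lack of overlap was seen in 1 of the 13 probe sets and in 1.62% of the table. The mean intensity was 66.4 ± 17.8 across the 7 dCIN arrays and 30.4 ± 5.76 across the 7 MN arrays (± SD here and below). The log2 difference was 1.10 with a standard error of 0.18 and a 95% interval of 0.71 to 1.49, a 2.14-fold higher signal in dCINs on the deposited scale (limma, adjusted p = 0.0027). The size of this fold depends on where the zero of the scale lies, since with an offset of 32 added to every value the log2 difference was 0.64 (limma adjusted p = 0.00345), and no detection call was used here that would place the MN signal above background. An exact permutation test over all splits of the 14 arrays gave a two-sided p of 0.000583, the lowest value such a test can reach with 7 arrays in each group. All 14 fits that left out 1 array called Grik1, but a fit in which the MIX arrays shared the estimate of spread did not, with the same difference and an adjusted p of 0.119 in limma. On the log2 scale the SD of Grik1 was 0.43 in dCINs, 0.29 in MNs and 1.08 in MIX. The study listed this probe set as higher in dCINs from the same arrays, so this call is not independent evidence.

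Gria2, the gene of the AMPA subunit GluA2, was measured by a pair of probe sets that did not give the same picture. M38061_at had a lowest value of 67.7, a median of 82.3 and a highest value of 103 in dCINs, against 24.2, 45.9 and 93.4 in MNs. All 7 dCIN arrays lay above the MN mean on the log2 scale and 3 lay above every MN array, so the groups overlapped, and MN array 3 was the highest of its group. The mean was 86.0 ± 15.1 in dCINs and 50.5 ± 24.9 in MNs. The log2 difference of 0.90 (SE 0.27, 95% interval 0.34 to 1.47, 1.87-fold) missed the threshold at an adjusted p of 0.102 (limma, Benjamini-Hochberg), while a single exact permutation test gave 0.00816. Without MN array 3 the difference was 1.07 with an adjusted p of 0.0136, and without MN array 4 or 5 the adjusted p was 0.0984 and 0.0793 in limma. The study listed M38061_at as higher in dCINs from the same arrays, by an average rank over several methods and with another estimate of the false discovery rate.

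The other Gria2 probe set, M36419_s_at, averaged 32.2 ± 4.96 in dCINs and 37.2 ± 6.38 in MNs. Its log2 difference was -0.20 (SE 0.13, 95% interval -0.47 to 0.07, limma adjusted p = 0.643), so its interval lay below that of M38061_at. The difference between both differences, taken array by array, was -1.11 with an exact permutation p of 0.0122 and 0.0734 after Benjamini-Hochberg adjustment over the 6 pairs of probe sets that share a gene. In 10 of 14 fits without 1 array this adjusted p was above 0.1, and the exact permutation p on arrays 3 to 7 of both groups, tried after seeing the data, was 0.0556 with a difference of -0.81. After adjustment over the same 6 pairs that last p was 0.333. Over all 22 arrays the log2 values of both Gria2 probe sets correlated at -0.35, and at -0.27 after the group means were removed. An Affymetrix name ending in _s_at marks a set whose probes may match more than 1 transcript, and the probe sequences were not analysed here. The Grik1 probe set M83561_s_at, the sole set of its gene here, has the same ending. M36419_s_at was also dim, at 26.1 to 39.8 in dCINs and 30.9 to 46.7 in MNs. The array medians were 43.5 to 50.9 and 44.3 to 50.8. Grik1 M83561_s_at likewise lay below the array medians in MNs, at 21.4 to 36.9. No detection call was used for any probe set, and whether a set as dim as M36419_s_at could show a difference was not tested.

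**Figure D2:**
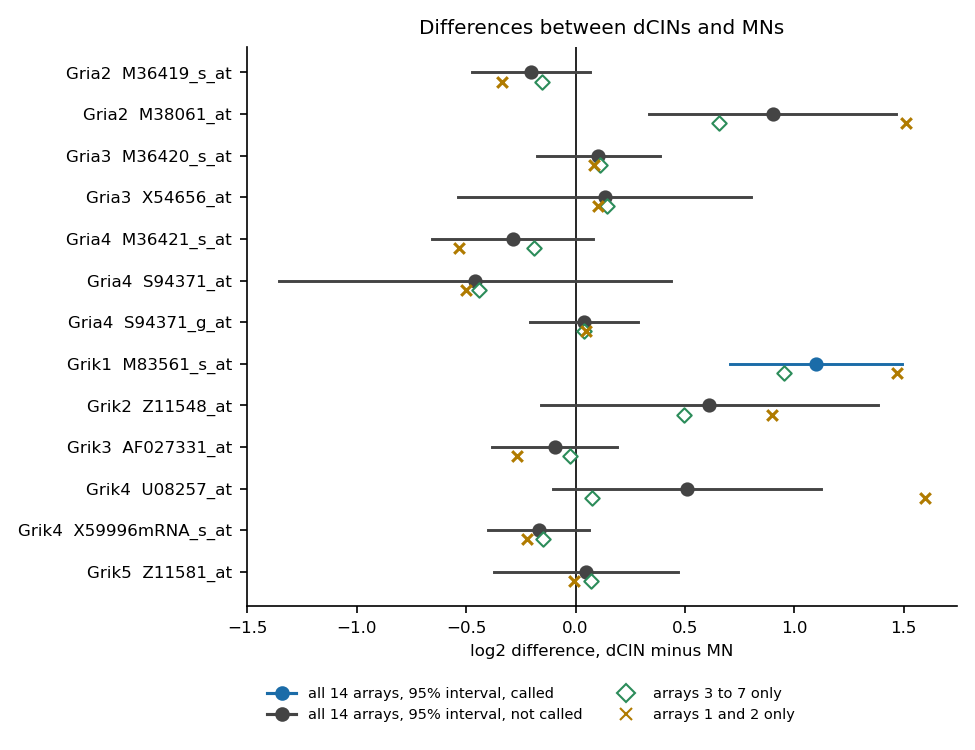
Log2 difference (dCIN minus MN) of each of the 13 probe sets, with the 95% interval of the limma fit on all 14 arrays (blue where called), the difference on arrays 3 to 7 (diamonds) and the difference on arrays 1 and 2 (crosses). Grik1 lies to the right of 0 in each, at 1.10, 0.95 and 1.47, while Grik4 U08257_at moves to 0.07 on arrays 3 to 7 and to 1.60 on arrays 1 and 2.

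Gria3, the gene of GluA3, was also represented by a pair of probe sets, and neither differed beyond the spread between arrays. M36420_s_at averaged 48.0 ± 8.96 in dCINs and 44.4 ± 6.07 in MNs, with a log2 difference of 0.10 (SE 0.13, 95% interval -0.18 to 0.39, limma adjusted p = 0.798). X54656_at averaged 79.0 ± 51.5 in dCINs and 66.6 ± 24.4 in MNs, with a difference of 0.13 (SE 0.31, 95% interval -0.54 to 0.80, limma adjusted p = 0.895). Its wide spread came in part from dCIN array 4 at 189, and without that array the difference was -0.11. The intervals do not exclude differences of either sign, and for X54656_at they reach 0.80 on the log2 scale.

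Gria4, the gene of GluA4, had 3 probe sets, none of which was called. M36421_s_at averaged 30.1 ± 5.48 in dCINs and 37.6 ± 12.2 in MNs, with a log2 difference of -0.29 (SE 0.17, 95% interval -0.65 to 0.08, limma adjusted p = 0.628), and of -0.15 without MN array 2, which read 63.2. S94371_at averaged 139 ± 91.4 in dCINs and 197 ± 140 in MNs, with a difference of -0.46 (SE 0.42, 95% interval -1.36 to 0.44, limma adjusted p = 0.724). S94371_g_at averaged 24.1 ± 4.50 in dCINs and 23.2 ± 1.80 in MNs, with a difference of 0.04 (SE 0.12, 95% interval -0.21 to 0.28, limma adjusted p = 0.922). The log2 values of M36421_s_at and S94371_at correlated at 0.71 over 22 arrays (0.66 after the group means were removed), whereas S94371_g_at correlated with them at -0.03 and 0.06. For M36421_s_at and S94371_at r was 0.64 in dCINs, 0.76 in MNs and 0.43 in MIX. Without the 2 arrays farthest from the median of M36421_s_at these were 0.07, 0.79 and 0.62.

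The spread of S94371_at followed the array number. In dCINs the arrays numbered 1 and 2 read 278 and 268, against 79.6 to 97.1 on arrays 3 to 7. In MNs arrays 1 and 2 read 451 and 329, against 84.0 to 182 on the others. In MIX array 1 read 177 and array 2 read 109, the others 79.0 to 118, so there only array 1 stood above the rest. On arrays 3 to 7 alone the difference was -0.44, with an exact permutation p of 0.0238 and an adjusted p of 0.296 in limma. With arrays 1 and 2 against the others as a covariate, the difference of -0.46 had a standard error of 0.14 and an adjusted p of 0.0775 in limma, which is past the threshold. The numbers are those of the biological replicates in the sample titles. Whether a number marks a shared date or batch is not given in the sources used here. MN arrays 1 and 2 were also the samples with 250 and 230 cells. In MNs the number and the cell count thus cannot be told apart. The dCIN arrays 1 and 2, also the highest of their group, had 60 and 75 cells. Without MN arrays 1 and 2, but with dCIN arrays 1 and 2 kept, the difference was 0.03.

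Among the kainate subunits other than Grik1 none passed the test. Grik2, the gene of the channel-forming subunit GluK2 (Z11548_at), had a lowest value of 33.2, a median of 82.9 and a highest value of 138 in dCINs, against 20.9, 51.8 and 86.9 in MNs. The 3 highest dCIN arrays lay above all MN arrays, and the rest overlapped. The means were 78.4 ± 36.7 in dCINs and 51.7 ± 23.7 in MNs, with a log2 difference of 0.61 (SE 0.36, 95% interval -0.16 to 1.38, limma adjusted p = 0.624, exact permutation p = 0.150). MN arrays 1 and 2, at 24.6 and 20.9, lay below the other MN arrays, which read 46.7 to 86.9. Without these 2 samples of over 200 cells the difference was 0.20, in a fit that kept dCIN arrays 1 and 2, at 33.2 and 53.7. It was 0.30 with log2 of the cell count as a covariate or with array weights. On arrays 3 to 7 of both groups the difference was 0.50, and on arrays 1 and 2 it was 0.90. With arrays 1 and 2 against the others as a covariate it was 0.61, with a limma adjusted p of 0.140.

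Grik3, the gene of GluK3 (AF027331_at), averaged 55.5 ± 8.36 in dCINs and 59.8 ± 12.9 in MNs, with a log2 difference of -0.09 (SE 0.13, 95% interval -0.38 to 0.19, limma adjusted p = 0.809). Here arrays 1 and 2 were the highest of their group in both, at 73.1 and 56.8 in dCINs and 72.4 and 83.2 in MNs, against 46.6 to 54.4 and 48.9 to 57.0 on the other arrays of each. On arrays 3 to 7 the difference was -0.03.

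Grik4 encodes the high-affinity subunit GluK4 and had a pair of probe sets. U08257_at averaged 262 ± 42.9 in dCINs and 204 ± 94.2 in MNs, with a log2 difference of 0.51 (SE 0.29, 95% interval -0.10 to 1.12, limma adjusted p = 0.598). This difference lay in MN arrays 1 and 2, at 83.1 and 89.9, since the other MN arrays read 180 to 317 and the dCIN arrays 179 to 314. It was 1.60 on arrays 1 and 2 and 0.07 on arrays 3 to 7, where the limma adjusted p was 0.940. X59996mRNA_s_at averaged 36.8 ± 3.48 in dCINs and 41.6 ± 6.17 in MNs, with a difference of -0.17 (SE 0.11, 95% interval -0.40 to 0.06, limma adjusted p = 0.669). The difference between both was 0.68, with an exact permutation p of 0.0851 and 0.245 after adjustment over the 6 pairs, and the remaining 4 pairs had an exact p of 0.122 or more.

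Grik5, the gene of the other high-affinity subunit, GluK5 (Z11581_at), averaged 102 ± 22.1 in dCINs and 100.5 ± 31.8 in MNs. Its log2 difference was 0.05 (SE 0.20, 95% interval -0.37 to 0.47, limma adjusted p = 0.943). The dCIN arrays 1 and 2 were the lowest of their group, at 66.1 and 85.5 against 99.4 to 136 on the others. In MNs array 1 was also the lowest, at 68.6, while array 2 at 82.8 lay above array 3 at 70.6. MN arrays 4 to 7 read 84.8 to 152.

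**Figure D3:**
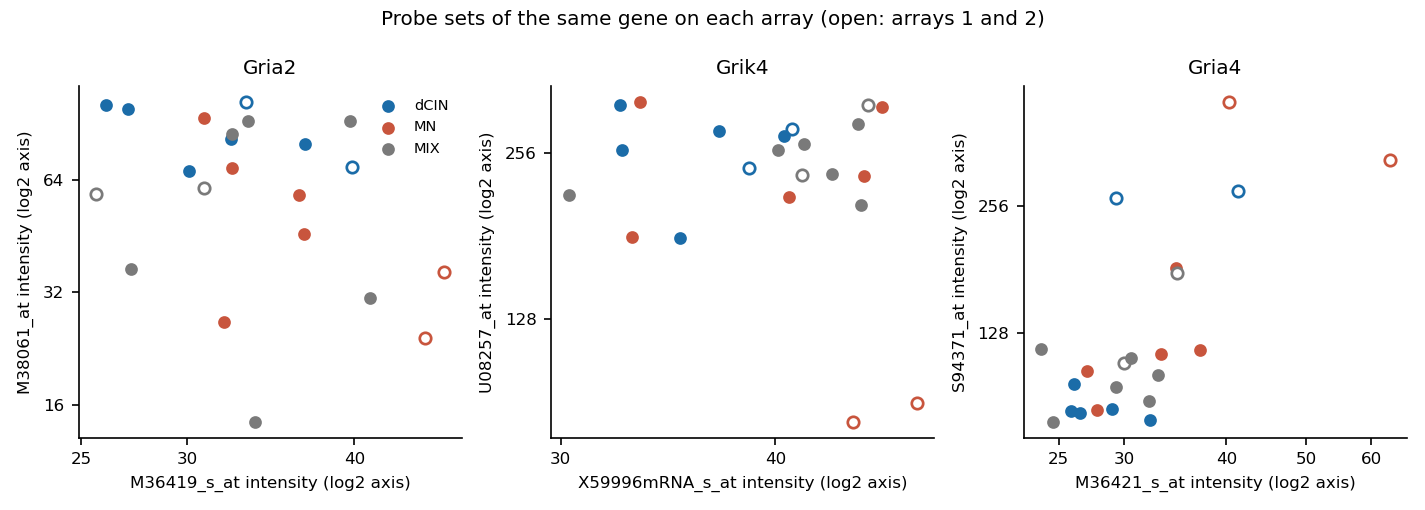
Intensity of one probe set against another of the same gene on each dCIN, MN and MIX array (log2 axes), with open circles for arrays 1 and 2. The Gria2 pair (r = -0.35 over 22 arrays) and the Grik4 pair (r = -0.24) did not go together. The Gria4 pair did over the 22 arrays (r = 0.71), with arrays 1 and 2 of dCINs and MNs at the top, but less so within MIX (r = 0.43).

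Set against random ventral horn cells, none of the 13 probe sets was called in dCINs, where 0.476% of the table was called, and none in MNs, where 0.952% was called, 0.667% higher and 0.286% lower (limma on all 22 arrays, adjusted p under 0.1). Both comparisons share the MIX arrays. In dCINs against MIX, 3 of the 13 had an unadjusted p under 0.05, against 7.14% of the table, and 11 of the 13 were higher in dCINs, against 54.4%. The median log2 difference was 0.14 over the 13 and 0.02 over the table. In MNs against MIX, 1 of the 13 had an unadjusted p under 0.05, against 11.8% of the table, and the median difference was 0.00, against 0.04.

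Grik1 averaged 66.4 ± 17.8 in dCINs and 41.7 ± 26.6 in MIX (n = 8), where single arrays reached from 10.5 to 86.0 around a median of 39.8. The lowest MIX array lay below every MN array and the highest above every dCIN array, so the group was wider than the gap between the labelled cell types. The log2 difference of dCINs from MIX was 0.93 (SE 0.35, limma adjusted p = 0.430, exact permutation p = 0.0536) and that of MNs from MIX was -0.17 (95% interval -0.88 to 0.55). Gria2 M38061_at averaged 58.8 ± 29.5 in MIX, with 14.4 to 92.0 on single arrays, and dCINs differed from it by 0.75 (SE 0.34, limma adjusted p = 0.616, exact permutation p = 0.0524), or by 0.49 without MIX array 7. Gria3 M36420_s_at averaged 48.0 ± 8.96 in dCINs and 38.5 ± 8.34 in MIX, with a difference of 0.33 (SE 0.15, limma adjusted p = 0.616, exact permutation p = 0.0612).

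Grik3 averaged 59.8 ± 12.9 in MNs and 48.6 ± 4.25 in MIX, a log2 difference of 0.28 (SE 0.11, limma adjusted p = 0.412, exact permutation p = 0.00901). The difference was 0.14 on arrays numbered 3 and above, and 0.12 without the MN samples of over 200 cells. In the same 3-group fit dCINs differed from MIX by 0.18 for Grik3 (limma adjusted p = 0.878). With log2 of the cell count as a covariate that difference was 0.36 and passed the threshold at an adjusted p of 0.0944 in limma, in a fit that called 68 of the 1050 probe sets in place of 5.

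Within groups, the 13 probe sets gave 78 pairs in each group and 234 in all, whose correlations over arrays were tested by exact permutation. After Benjamini-Hochberg adjustment over the 234, 4 pairs in dCINs, 2 in MNs and 4 in MIX had an adjusted p under 0.1 for Pearson's r, and none did for Spearman's rho, where the lowest adjusted p was 0.160. Signals on 1 array share its RNA and amplification, and 7 or 8 arrays give these values a wide error. In dCINs the pairs were Gria2 M36419_s_at with Grik2 (r = -0.96) and with Gria4 M36421_s_at (r = 0.89), and Gria4 S94371_at with Grik5 (r = -0.88) and Grik3 (r = 0.80). In MNs Gria4 M36421_s_at went with Grik3 (r = 0.91) and against Grik2 (r = -0.89). Without the 2 arrays farthest from the median, r was -0.89, 0.93, -0.72 and 0.48 for the 4 dCIN pairs in this order. For the 2 MN pairs it was 0.70 and -0.77. In dCINs arrays 1 and 2 were the highest for S94371_at and Grik3 and the lowest for Grik5.

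In MIX the 4 pairs joined Grik1, Grik2, Gria2 M38061_at and Gria3 M36420_s_at, all with a positive sign. For Gria2 M38061_at and Grik2, r was 0.90 (exact permutation p = 0.00144, adjusted 0.0730) and rho 0.93 (exact permutation p = 0.00223), over 8 arrays. For Grik1 and Grik2, r was 0.89 (exact permutation p = 0.00382, adjusted 0.0894) and rho 0.86 (exact permutation p = 0.0107). Gria3 M36420_s_at correlated with Grik2 at 0.85 and with Grik1 at 0.85 (exact permutation p = 0.00184 and 0.00313, adjusted 0.0730 and 0.0813). Without the 2 farthest arrays the 4 values of r were 0.91, 0.83, 0.84 and 0.80. The labelled cell types did not share this pattern throughout. Grik1 and Grik2 correlated at -0.14 in dCINs and 0.70 in MNs, and Gria2 M38061_at and Grik2 at 0.49 in dCINs and 0.82 in MNs. Gria3 M36420_s_at had a negative r in both, with Grik2 at -0.70 in dCINs and -0.24 in MNs and with Grik1 at -0.23 in dCINs and -0.06 in MNs. None of these 8 values had an adjusted p under 0.1 (exact permutation), the lowest being 0.189, and differences between groups in r were not tested. Over all 22 arrays Grik1 and Grik2 correlated at 0.65, which also holds the differences between groups.

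**Figure D4:**
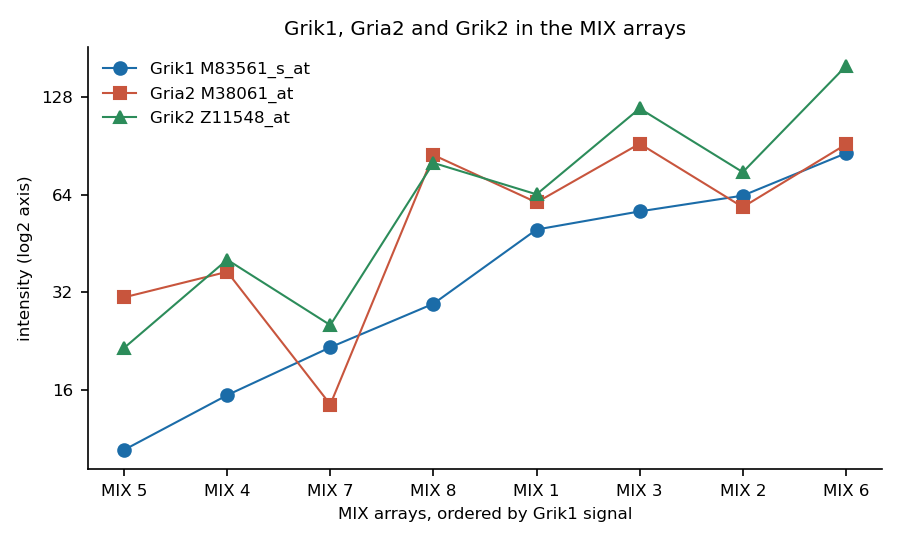
Intensity (log2 axis) of Grik1 M83561_s_at, Gria2 M38061_at and Grik2 Z11548_at on the 8 MIX arrays, ordered by the Grik1 signal. MIX arrays 4, 5 and 7 hold the 3 lowest values of each, and MIX array 6 the highest Grik1 (86.0) and Grik2 (160) signals.

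On the MIX arrays themselves, array 6 read 86.0 for Grik1, 91.6 for Gria2 M38061_at and 160 for Grik2, and array 3 read 56.9, 92.0 and 118. Array 5 read 10.5, 30.9 and 21.6, array 7 read 21.7, 14.4 and 25.4, and array 4 read 15.4, 37.1 and 40.4. Arrays 1, 2 and 8 lay between these for Grik2, at 64.2, 75.2 and 80.3. Markers also varied over the 8 MIX arrays. The inhibitory marker Slc32a1 read 368, 452, 580, 362, 187, 365, 328 and 561 on arrays 1 to 8. Arrays 4, 5 and 7 were thus lowest for it as for the receptors. Array 4 was, however, close to array 1 (368) and to array 6 (365), the highest for Grik1 and Grik2. The astrocyte marker S100b was lowest on arrays 7 (658), 5 (893) and 2 (917), whereas array 4 read 1518, below only array 1 (1691). The motor neuron marker Slc18a3 read between 1672 (array 8) and 3801 (array 1), and Calcb between 89.6 (array 8) and 376 (array 2). The part of the cell makeup of each MIX sample in the receptor signals was not tested.

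Of the 960 probe sets with a single gene symbol other than Grik1, that with the log2 pattern most like Grik1 over the 22 arrays was Prkcb X04139_s_at, for protein kinase C beta (r = 0.86, rho = 0.82, and r = 0.78 after the group means were removed). It was followed by Gabbr2 AF058795_at, for a subunit of the GABA-B receptor (r = 0.78, rho = 0.88, within groups 0.68), and Scn2a M22254_at, for a voltage-gated sodium channel (r = 0.77, rho = 0.72, within groups 0.76).

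Of 42 genes for auxiliary subunits, scaffolds, kinases and other partners of the receptors, 12 were measured by 18 probe sets. Of these, 3 were called higher in dCINs than in MNs and 0 lower, against 2.38% and 1.43% of the table, with a median log2 difference of 0.13. Prkcb X04139_s_at averaged 953 ± 179 in dCINs and 396 ± 178 in MNs, with a difference of 1.38 (SE 0.26, limma adjusted p = 0.00509). Nptxr and Nptx2, of the neuronal pentraxins that gather AMPA receptors at synapses, differed by 1.08 (rc_AI228113_s_at, SE 0.29, limma adjusted p = 0.0718) and 0.91 (S82649_s_at, SE 0.25, limma adjusted p = 0.0659). Each of these 3 genes had other probe sets that were not called, and the study listed these genes from the same arrays, so their direction is not independent evidence. Camk2g S71570_s_at and Camk2d L13406_s_at, of the calmodulin-dependent kinase II family, differed by -0.64 (SE 0.36) and 0.24 (SE 0.13) and were not called (limma adjusted p = 0.598 and 0.601). The other ionotropic glutamate receptor genes, those of NMDA and delta receptors, were measured for 7 of 9 genes by 10 probe sets. Of these 0 were called, and 1, Grin3a U29873_at, had an unadjusted p under 0.05, with a difference of 0.43 (SE 0.18, limma adjusted p = 0.415). The other Grin3a probe sets, AF061945_at and AF061945_g_at, differed by -0.20 and -0.24, and the median of the 10 was -0.14. Against MIX, 0 partner probe sets were called in dCINs and 1 in MNs, against 0.476% and 0.952% of the table. That called in MNs was the Nptxr probe set rc_AI228113_s_at, which fell by 1.04 on the log2 scale (limma adjusted p = 0.097).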

How the data were processed

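Laser microdissected dCINs, MNs and MIX cells were hybridized to RN_U34 arrays after a 2-round amplification. The deposited values are intensities that the authors made from the PM probes (global background subtraction, QLT, QPN, Li-Wong summaries on a linear scale, subtraction of a universal minimum). The labels name the affy package, and its version is not given in the sources used here. The table holds 1050 probe sets, of which 961 have 1 symbol in the platform annotation, 7 several and 82 none, and the Entrez IDs of all 13 receptor probe sets pointed to the same symbols in RefSeq. Values ran from 1 to 8642. Array columns without a sample numbered 0. The number of arrays limits the precision.

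Values were log2-transformed and fitted with limma 3.58.1 in R 4.3.3 (lmFit, eBayes) on the 14 dCIN and MN arrays, and with 3 group means on all 22 arrays for MIX. A probe set was called when its p, adjusted by Benjamini-Hochberg across the 1050 probe sets, was under 0.1. Single values, pairs of probe sets of 1 gene and correlations were tested by exact permutation, two-sided. Code was tested on simulated data. Plotting used matplotlib 3.10.9 with pandas 2.3.3. All 13 probe sets were reported, with the 3 nearest patterns of each one called and up to 5 partner probe sets with the lowest p. The probe sets and lists were chosen with earlier results of these data known. Alternatives changed the arrays fitted, the log offset, the filter on dim probe sets, the normalization, the prior, the weights, the covariates, the block, the probe sets tested and the threshold, and left out each array in turn.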

Additional observations from a re-analysis of the deposited data

Results flagged for a closer look

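Over the 13 probe sets and 3 groups, 39 sets of 7 or 8 log2 values were searched for an array far from the others by Dixon's criterion, and 2 were found, where chance gives about 1 in 20. Both were MIX array 5. Its Grik3 AF027331_at signal of 39.3 was the lowest of the MIX arrays, the next being 46.2. Its Grik4 X59996mRNA_s_at signal of 30.3 was also the lowest, the next being 40.1. The same array held the lowest Grik1 signal of all 22 arrays, 10.5.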

How the results depend on the processing

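The count of 1 receptor probe set called between dCINs and MNs became 0 with all 22 arrays in the fit and 0 with a minimum mean log2 value of 6 (which left 4 of the 13 and not Grik1), 2 with an intensity trend and robust prior, 2 with array weights, 2 on probe sets with 1 symbol, and 3 with arrays 1 and 2 as a covariate. Leaving out 1 array gave 1 to 2. The addition was Gria2 M38061_at each time (adjusted p 0.0729, 0.0628, 0.0955 and 0.0520 by limma), joined by Gria4 S94371_at with the covariate. The table as a whole gave 40 calls, 76 with array weights and 83 with that covariate. Against MIX the count of 0 in dCINs became 1 (Grik3) with cells as a covariate and stayed 0 otherwise, as it did in MNs, and without 1 array it was 0 to 0 in both.

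Differences that changed sign, none of them called without a covariate, were those of Gria3 X54656_at (-0.11 without the MN samples of over 200 cells, -0.11 to 0.27 without 1 array), Gria4 S94371_at (0.0058 with cells as a covariate, 0.035 without those MN samples), Gria4 S94371_g_at (-0.0082 with cells, -0.032 to 0.10 without 1 array), Grik3 (0.064 with cells, 0.066 without those MN samples) and Grik5 (-0.11 with array weights, -0.17 with cells, -0.094 without those MN samples, -0.034 to 0.16 without 1 array). The cause was not tested. An offset of 32 shrinks the log2 differences of dim probe sets by construction. The difference between the Gria2 probe sets was -1.32 to -0.90 without 1 array (exact permutation, adjusted p 0.0105 to 0.161) and -0.67 with an offset of 32.

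Arrays of the same number in dCINs and MNs deviated together in 5 of 7 pairs (correlation over 0.1, range -0.19 to 0.53), and 2 of 7 correlated best with their own number. These values do not settle whether the numbers pair the samples, and the sample titles name no shared batch. The main fit used no pairing. With the number as a block 1 receptor probe set was called, Grik1 (limma adjusted p = 0.0176), and 55 in the whole table. Gria4 S94371_at came to an adjusted p of 0.103 with the block, against 0.724 without it.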
